A study of Mus musculus with 12 samples.

Results

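The colony-stimulating factors and their receptors, 9 genes in all, are described here. They are the ligand genes Csf1, Csf2, Csf3 and Il34 and the receptor genes Csf1r, Csf2ra, Csf2rb, Csf2rb2 and Csf3r, chosen by symbol from the 18771 genes of the deposited table. All 9 were found, had values in every library and passed the filter on low counts. The libraries are RNA sequencing of cardiac fibroblasts, stromal cells that make the heart's matrix, taken from the mouse left ventricle 3 days after a myocardial infarction made by permanently tying off the left anterior descending artery. The study asked what Pfas, an enzyme gene of de novo purine synthesis, does in these cells in vivo. The 6 Pfas CKO libraries came from mice of genotype PDGFRa CreER/+;Pfas fl/fl, in which tamoxifen was given on 3 occasions, 7 and 3 days ahead of the infarction and on the first day after. The 6 control libraries came from mice of genotype PDGFRa CreER/+;Pfas fl/+, which carry the same Cre and a floxed allele too. Tamoxifen is stated for the knockout mice alone, so its effect and that of the genotype cannot be told apart, and ages are not given. CreER under Pdgfra is active in cells that express that gene, which marks fibroblasts.

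Colony-stimulating factors are secreted proteins that keep myeloid cells alive and make them divide and mature. M-CSF (Csf1) and IL-34 (Il34) both act through the tyrosine kinase receptor CSF1R on macrophages. GM-CSF (Csf2) acts through a receptor of an alpha chain (Csf2ra) and a beta chain (Csf2rb) that is shared with the IL-3 and IL-5 receptors, and G-CSF (Csf3) acts through CSF3R, the main growth factor receptor of neutrophils. Mice have a further beta chain gene next to Csf2rb, Csf2rb2, whose protein serves IL-3. Fibroblasts are a known source of M-CSF and, when stimulated by inflammatory cytokines, of GM-CSF and G-CSF, whereas the receptors are found mostly on myeloid cells.

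Libraries held 20320133 to 20520386 estimated read counts in Pfas CKO and 20560953 to 20950074 in control. The labels do not state that each library is a mouse of its own, and the libraries fell into near-identical sets: Pfas CKO 1, 3, 5 and 6, control 1 to 3, and control 4 to 6, with Pfas CKO 2 and 4 standing apart. The mean chi-square per gene, which is 1 under sampling noise alone, was 1.68 to 5.22 within these sets and 17.5 to 39.9 between sets of a group. P-values therefore measure the spread between libraries, which may be technical. Pfas itself ranged between 8.01 and 17.4 CPM in Pfas CKO and between 22.4 and 24.9 CPM in control, and its highest levels in the knockout were in libraries 2 and 4. CPM here are read counts relative to library size after TMM scaling, which corrects library totals for a few very abundant genes. TMM left the median gene at a log2 fold change of -0.02, whereas library totals alone put it at -0.26, so directions below are relative to TMM and the value with library totals is given where it differs in sign or call. In edgeR's quasi-likelihood test 13600 genes entered, and a gene is called where its p, adjusted by the Benjamini-Hochberg method over all of them, is under 0.05.

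By this rule 3 of the 9 genes were higher in Pfas CKO (Csf1, Csf2 and Csf3), 3 were lower (Csf2ra, Csf2rb and Csf3r) and 3 were not called (Il34, Csf1r and Csf2rb2). Among all tested genes 68.6% were called, 33.4% higher and 35.2% lower, so the 6 calls among 9 genes are near the background. With library totals alone 3 of the 9 were higher and 4 lower, where 73.4% of all genes were called, 20.4% higher and 53% lower. With near-identical libraries summed the same 3 ligands were higher and 0 of the 9 lower, beside 37.2% of all genes, 18.3% higher and 18.9% lower. In 4 of the 9 the groups did not overlap in CPM (Csf1, Csf2 and Csf3 higher, Csf2rb lower), as in 47.1% of all genes, 23.2% higher and 23.9% lower. Csf2 and Csf3 were called with at least a 2-fold increase, which 6.88% of all genes showed, and 0 of the 9 with such a decrease, beside 6.26%. Control 4 to 6 set against control 1 to 3, libraries of the same genotype, gave calls for 7 of the 9 genes, Csf2 higher and the other 6 lower (Csf3 and Il34 were not called), beside 45.5% of 13727 genes, 23.5% higher and 22% lower. All called increases were in ligands and all called decreases in receptor chains, but the sizes were unequal: with TMM scaling Csf2 and Csf3 changed several-fold and each of the other 7 by less than 1.5-fold. Csf2rb passed 1.5-fold with library totals alone, on log2(TPM + 1) and without Pfas CKO 2 and 4 (log2 fold changes -0.69, -0.76 and -0.65). The median log2 fold change of the 9 genes was 0.04, or -0.19 with library totals alone. In bulk RNA, fewer cells of a type and less RNA per cell cannot be told apart.

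**Figure D1:**
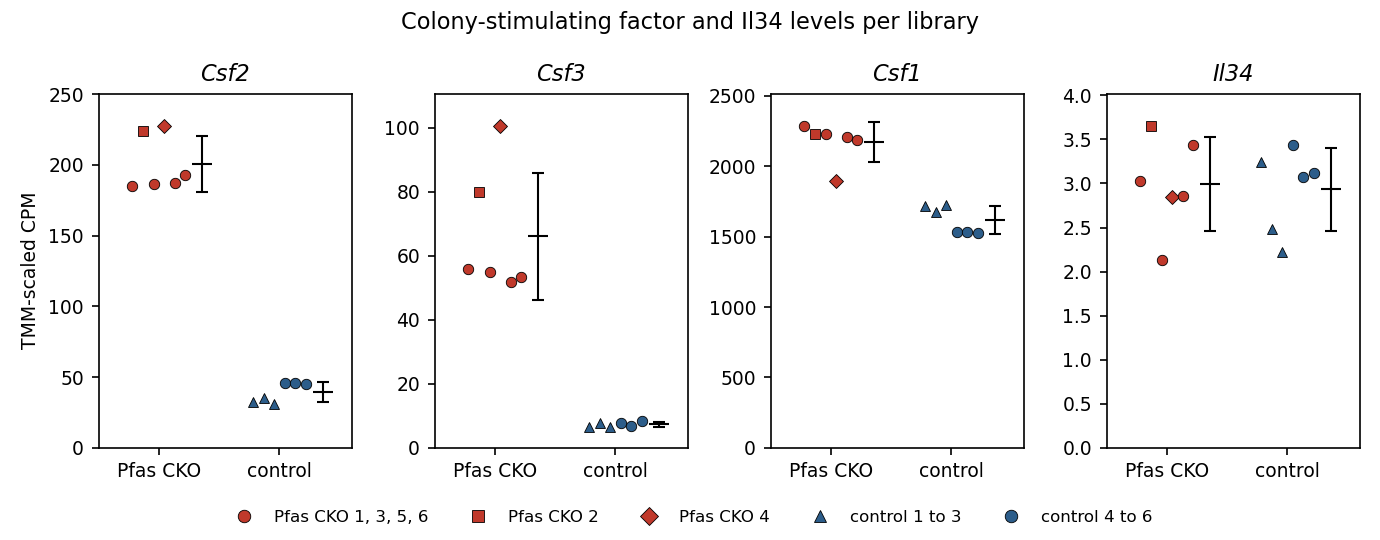
TMM-scaled CPM of the 4 ligand genes in each Pfas CKO and control library, with mean and SD (n = 6 each) beside the points. Csf2 and Csf3 in Pfas CKO sit far above control, Csf1 sits above it by a smaller margin, and Il34 overlaps.

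Csf2, the gene for GM-CSF, stood at 185 CPM in the lowest Pfas CKO library, with a median of 189.9 and a highest value of 228, while control stood at 31.0, 40.4 and 45.6 CPM. Libraries 2 and 4 were the highest of the Pfas CKO group, and every Pfas CKO library was above every control library. The means were 201 ± 19.8 CPM in Pfas CKO and 39.2 ± 7.10 CPM in control (SD, n = 6 each), a 5.12-fold difference (log2 fold change 2.36 ± 0.109, SE; edgeR adjusted p = 5.12e-11). The control sets also differed from each other, with control 4 to 6 at a mean of 45.5 CPM and control 1 to 3 at 32.8 CPM (log2 difference 0.46; edgeR adjusted p = 1.15e-07). Against control 4 to 6 alone the log2 fold change of Csf2 in Pfas CKO was 2.14, against control 1 to 3 alone 2.61, and without Pfas CKO 2 and 4 it was 2.25. Csf2 (gene ID 12981) lies on the minus strand of GRCm38 chromosome 11, chr11:54247271-54249667, and is protein-coding.

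Csf3, the gene for G-CSF, had the largest fold change of the 9 genes. Its lowest, median and highest levels were 51.7, 55.4 and 100.7 CPM in Pfas CKO, against 6.57, 7.34 and 8.34 CPM in control. The Pfas CKO group was uneven, with 79.9 CPM in library 2 and 100.7 CPM in library 4 and at most 55.9 CPM in the other 4, yet none of them overlapped control. The means were 66.1 ± 19.9 CPM in Pfas CKO and 7.35 ± 0.737 CPM in control (SD, n = 6 each), 8.995-fold higher (log2 fold change 3.17 ± 0.168, SE; edgeR adjusted p = 2.43e-10). Without libraries 2 and 4 the log2 fold change was 2.87. Control 4 to 6 were not called different from control 1 to 3 for this gene (log2 difference 0.13 ± 0.103; edgeR adjusted p = 0.345). Csf3 (gene ID 12985; chr11:98701263-98703629, plus strand, protein-coding) is on the same chromosome as Csf2 but is not its neighbour.

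The 3′ untranslated regions of Csf2 and Csf3 are known for AU-rich elements, repeats of the DNA letters ATTTA, with U for T in the RNA, that mark cytokine mRNAs for decay. In the transcripts with the longest coding sequence in GENCODE M21, the Csf2 3′ UTR held 9 ATTTA pentamers in 317 bases and that of Csf3 held 6 in 669 bases, counting overlaps and the sense strand alone. At least as many pentamers per base of 3′ UTR were found in 0.0613% of 13043 tested genes for Csf2 and in 1.34% for Csf3. At least as many in number, whatever the length, were found in 7.24% for Csf2 and in 15.5% for Csf3. The nonamer TTATTTATT, which contains the pentamer, occurred 4 times in Csf2 and in none of the other 8 genes, beside 7.41% of tested genes with at least 1 match and 0.552% with at least 3. Csf1 had 4 pentamers in 2111 bases, Csf1r had 3 in 1669 and Il34 had 1 in 439. Csf2ra, Csf2rb, Csf2rb2 and Csf3r had 0. The windows of 30 bases with the most pentamers in the 3 ligands that rose are printed 5′ to 3′ on the transcript strand, with ATTTA in capitals, because they show how the ligands differ in this feature. They lie at chr11:54247329-54247358 (minus strand) for Csf2, chr11:98702984-98703013 (plus strand) for Csf3 and chr3:107741109-107741138 (minus strand) for Csf1, on GRCm38.
Csf2: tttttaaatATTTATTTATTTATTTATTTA
Csf3: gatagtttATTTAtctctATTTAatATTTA
Csf1: tttatataaggtcATTTAaatatctATTTA
The windows hold 5 pentamers in Csf2, 3 in Csf3 and 2 in Csf1. Such matches describe the sequence and were not tied to a measured decay rate.

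Csf1, the gene for M-CSF, had the highest mean level of the 9 genes per length in both groups. In CPM it stood at 1894, 2217 and 2287 CPM (lowest, median, highest) in Pfas CKO, against 1524, 1606 and 1726 CPM in control. Library 4 was the low one of the Pfas CKO group and still above every control library in CPM. In TPM the groups overlapped, with Pfas CKO 4 at 907.7 and control at 865.1 to 1033. The means were 2171 ± 140 CPM in Pfas CKO and 1618 ± 98.2 CPM in control (SD, n = 6 each), 1.34-fold higher (log2 fold change 0.42 ± 0.0554, SE; edgeR adjusted p = 6.28e-06). This difference depended on the scaling: it was 0.19 with library totals alone (edgeR adjusted p = 0.00880) and 0.14 on log2(TPM + 1), where the call was lost (limma adjusted p = 0.0568; 1.38e-13 to 0.0568 over 26 alternatives). Csf1 (gene ID 12977; chr3:107741048-107760469, minus strand, protein-coding) also differed between the control sets, control 4 to 6 being the lower (log2 difference -0.17; edgeR adjusted p = 2.05e-05).

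Il34, the other ligand of CSF1R, had the lowest level of the 9 per length. In CPM it stood at 2.14, 2.95 and 3.66 CPM (lowest, median, highest) in Pfas CKO, against 2.23, 3.10 and 3.44 CPM in control. The groups overlapped throughout, and no difference was called (log2 fold change 0.03 ± 0.142, SE; edgeR adjusted p = 0.852). The sign turned to -0.20 with library totals alone, also not called. Per length, Csf1 made up 99.61% to 99.77% of the summed Csf1 and Il34 TPM in Pfas CKO and 99.46% to 99.69% in control, so nearly all transcript of the CSF1R ligands was Csf1 in both groups. TPM are the authors' transcript levels, corrected for gene length and library size. The log2 ratio of Csf1 to Il34 was higher in Pfas CKO by 0.41 (exact two-sided permutation test over libraries, p = 0.0368, 0.0455 adjusted over the 3 ratios tested), but the call was lost when any of 8 libraries was left out, Pfas CKO 1, 3, 4 or 5 or control 1, 4, 5 or 6 (0.31 to 0.51 over all 12 omissions). Il34 (gene ID 76527) lies at chr8:110741829-110805924 on the minus strand and is protein-coding.

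Receptor transcripts changed far less than Csf2 and Csf3. Csf2rb, the shared beta chain, was the receptor gene with the largest decrease. It stood at 1007, 1037 and 1446 CPM (lowest, median, highest) in Pfas CKO, against 1534, 1590 and 1671 CPM in control. Libraries 2 and 4 of Pfas CKO, at 1430 and 1446 CPM, came near the control range, whereas the other 4 were at 1007 to 1050 CPM. The means were 1162 ± 214.5 CPM in Pfas CKO and 1596 ± 54.1 CPM in control (SD, n = 6 each), 72.8% of the control level (log2 fold change -0.46 ± 0.0942, SE; edgeR adjusted p = 0.000480). Without libraries 2 and 4 the log2 fold change was -0.65 (edgeR adjusted p = 5.16e-09), with library totals alone -0.69 (edgeR adjusted p = 9.67e-06) and on log2(TPM + 1) -0.76 (limma adjusted p = 2.65e-06), but with near-identical libraries summed it was -0.29 and not called (edgeR adjusted p = 0.179). Csf2rb (gene ID 12983) lies at chr15:78325752-78353847 on the plus strand.

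**Figure D2:**
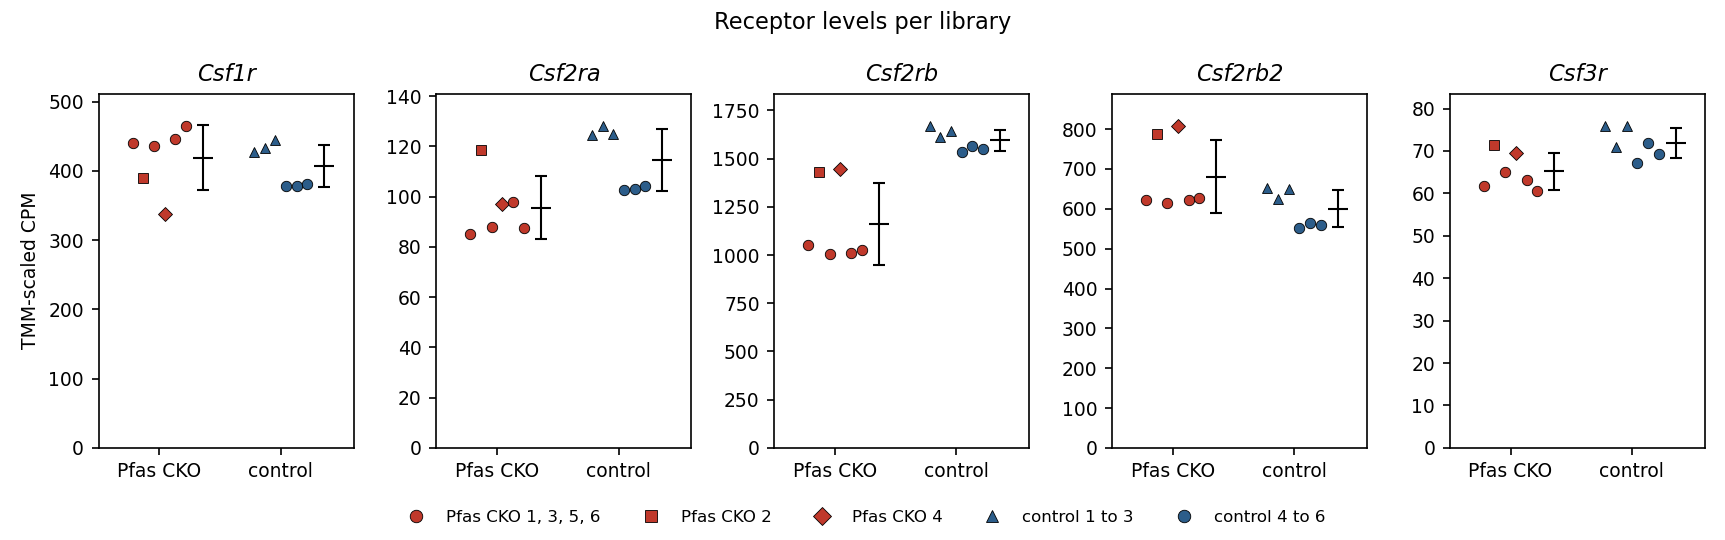
TMM-scaled CPM of the 5 receptor genes in each Pfas CKO and control library, with mean and SD (n = 6 each). Csf2rb does not overlap between the groups and is lower in Pfas CKO, and the other 4 genes overlap. Pfas CKO 2 and 4 lie above the other 4 knockout libraries in Csf2rb and Csf2rb2.

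Csf2ra, the alpha chain that gives the GM-CSF receptor its specificity, stood at 85.3, 92.4 and 118.5 CPM in Pfas CKO, against 102.5, 114.5 and 128 CPM in control. Library 2 of Pfas CKO lay within the control range, and the other 5 were below it. The log2 fold change was -0.26 ± 0.0870 (SE; edgeR adjusted p = 0.01485), and -0.37 without Pfas CKO 2 and 4. The control sets differed from each other by more than that, control 4 to 6 being the lower (log2 difference -0.30; edgeR adjusted p = 1.65e-07). Against control 4 to 6 alone the value was -0.12 and not called (edgeR adjusted p = 0.298), and with near-identical libraries summed -0.17 and not called (edgeR adjusted p = 0.405; 4.49e-05 to 0.405 over 26 alternatives). With library totals alone it was -0.49 (edgeR adjusted p = 0.000176) and on log2(TPM + 1) -0.55 (limma adjusted p = 4.49e-05). In TPM the groups did not overlap, at 86.1 to 115 in Pfas CKO and 123 to 157 in control. On log2(TPM + 1), however, the median of 12426 genes was at -0.277, so most genes were lower on that scale. The share of all genes without overlap in TPM was not counted. Csf2ra (gene ID 12982) lies at chr19:61223957-61228429 on the minus strand.

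Csf3r, the G-CSF receptor, stood at 60.6, 64.1 and 71.5 CPM in Pfas CKO, against 67.2, 71.5 and 75.95 CPM in control. Pfas CKO 2 and 4 overlapped the control range and the other 4 did not. The log2 fold change was -0.14 ± 0.0533 (SE; edgeR adjusted p = 0.0291), close to the difference between the control sets (-0.11; edgeR adjusted p = 0.0287). The call was lost against control 4 to 6 alone (log2 fold change -0.095; edgeR adjusted p = 0.194), with near-identical libraries summed (log2 fold change -0.08; edgeR adjusted p = 0.618; 2.42e-06 to 0.618 over 26 alternatives), and without any of 6 libraries, Pfas CKO 1, 3, 5 or 6 or control 1 or 3 (edgeR adjusted p = 0.0524 to 0.0741). With library totals alone the decrease was larger (-0.37; edgeR adjusted p = 2.25e-05), as it was without Pfas CKO 2 and 4 (-0.21; edgeR adjusted p = 0.00177). In TPM the groups did not overlap, at 36.9 to 41.95 in Pfas CKO and 48.5 to 56.4 in control. As for Csf2ra, the median gene was at -0.277 on log2(TPM + 1), and the share of all genes without overlap was not counted. Csf3r (gene ID 12986) lies at chr4:126024550-126044440 on the plus strand.

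Csf1r, the macrophage receptor of M-CSF and IL-34, was not called. It stood at 337.8, 437.9 and 465.4 CPM in Pfas CKO, against 378.5, 404.5 and 444.6 CPM in control. The lowest library of all was Pfas CKO 4 and the highest Pfas CKO 6, so the knockout spanned the control range. The log2 fold change was 0.04 ± 0.0751 (SE; edgeR adjusted p = 0.638), and with library totals alone it turned to -0.19 and was called lower (edgeR adjusted p = 0.0369). Csf1r (gene ID 12978) lies at chr18:61100598-61132149 on the plus strand. Csf2rb2 was not called either. It stood at 615, 625 and 809 CPM in Pfas CKO, against 552, 595 and 651 CPM in control. The highest values were those of Pfas CKO 2 and 4, and the other 4 knockout libraries lay within the control range. Its log2 fold change was 0.18 ± 0.0810 (SE; edgeR adjusted p = 0.0594), with a turn to -0.05 with library totals alone and 0.038 without Pfas CKO 2 and 4. A call in the higher direction came against control 4 to 6 alone (0.28; edgeR adjusted p = 0.0258; 0.0258 to 0.578 over 26 alternatives) and without any of Pfas CKO 1, 3, 5 or 6 or control 1 or 3. Csf2rb2 (gene ID 12984) lies at chr15:78282507-78305721 on the minus strand.

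The balance between the beta chain genes differed between the groups. Per length, Csf2rb made up 61.2% to 63.8% of the summed Csf2rb and Csf2rb2 TPM in Pfas CKO and 70.8% to 72.9% in control. The groups did not overlap, and libraries 2 and 4 of Pfas CKO, at 63.8% and 63.4%, lay with the rest of their group. The means were 62.2% ± 1.14 in Pfas CKO and 72.0% ± 1.03 in control (SD, n = 6 each). The log2 ratio of Csf2rb to Csf2rb2 was lower in Pfas CKO (log2 ratio difference -0.65; exact two-sided permutation test over libraries, p = 0.00217, the smallest that 6 against 6 libraries can give, and 0.00649 adjusted over the 3 ratios). That test takes near-identical libraries as independent. A ratio within a library does not depend on how libraries are scaled, and it shows unequal change, not which of the genes moved. The difference was -0.69 to -0.63 over 14 alternatives, all called. Of these, FPKM in place of TPM could not change a ratio within a library. The others left out libraries, and none summed the near-identical sets.

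The beta chain genes are close copies, so their read counts are uncertain. Their coding sequences were 95.2% identical over 2631 aligned positions, and 26.0% of all 50-base windows of Csf2rb occur letter for letter in Csf2rb2. None of the other 35 pairs among the 9 genes shared such a window. How reads that fit both genes were divided is not stated, and its part in the shift of the ratio was not tested. The sum of both genes does not depend on that division: it was 1622, 1662 and 2254 CPM in Pfas CKO (lowest, median, highest), against 2086, 2185 and 2322 CPM in control. In CPM the sum overlapped between the groups, through Pfas CKO 2 and 4. In TPM it did not, at 680.4 to 935 in Pfas CKO and 1041 to 1220 in control, but most genes were lower on that scale (median -0.277 on log2(TPM + 1)). For the GM-CSF receptor chains, the ratio of Csf2ra to Csf2rb TPM was 0.201 ± 0.0246 in Pfas CKO and 0.174 ± 0.0134 in control (SD, n = 6 each; log2 ratio difference 0.20; exact two-sided permutation test, p = 0.0455, also 0.0455 adjusted over the 3 ratios). The call was lost when any library but Pfas CKO 4 or control 2 was left out (0.16 to 0.27 over all 12 omissions).

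**Figure D3:**
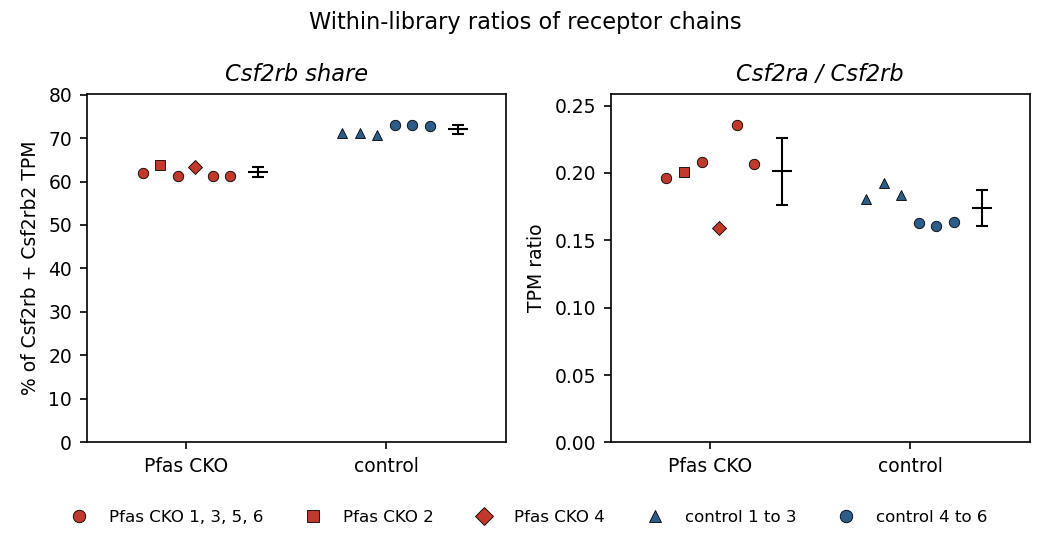
Left, the share of Csf2rb in the summed TPM of Csf2rb and Csf2rb2, and right, the ratio of Csf2ra to Csf2rb TPM, per library with mean and SD (n = 6 each). The share is 61.2% to 63.8% in Pfas CKO and 70.8% to 72.9% in control without overlap, and the ratio overlaps.

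Compared per length, the order of the 9 genes differed between the groups mainly through the ligands. In Pfas CKO, Csf1 led at 1038 ± 69.4 TPM and was followed by Csf2rb (477 ± 81.8), Csf2 (401 ± 33.9), Csf2rb2 (289 ± 35.2), Csf1r (213 ± 25.6), Csf3 (96.1 ± 28.1), Csf2ra (94.8 ± 10.8), Csf3r (39.3 ± 1.81) and Il34 (3.42 ± 0.557 TPM; SD, n = 6). Csf2rb and Csf2 overlapped in that order, as did Csf3 and Csf2ra, and the other neighbours did not. In control, Csf1 led at 943 ± 81.5 TPM and was followed by Csf2rb (802 ± 47.4), Csf2rb2 (313 ± 33.9), Csf1r (253 ± 25.1), Csf2ra (139.9 ± 17.9), Csf2 (95.9 ± 14.5), Csf3r (52.8 ± 3.05), Csf3 (12.4 ± 1.09) and Il34 (4.12 ± 0.628 TPM; SD, n = 6). There Csf1 and Csf2rb overlapped, as did Csf2rb2 and Csf1r. Csf2 was thus in the third place in Pfas CKO and the sixth in control, and its TPM exceeded that of its receptor chain Csf2ra in every Pfas CKO library and was below it in every control library. The same held for Csf3 and its receptor Csf3r.

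**Figure D4:**
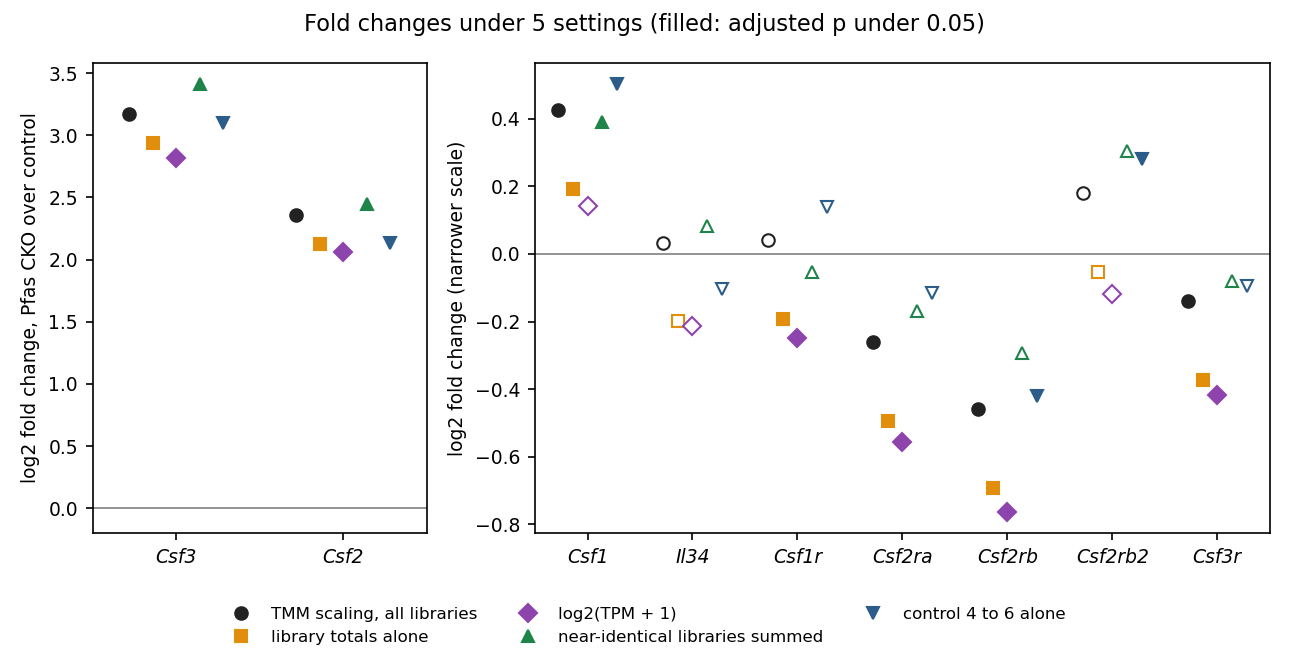
Log2 fold change of each gene, Pfas CKO over control, under 5 settings, with filled symbols for an adjusted p under 0.05. Csf2 and Csf3 stay above 2 in all of them, whereas Il34, Csf1r and Csf2rb2 cross 0.

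Markers of other cells moved in the same libraries. Fibroblast markers were abundant, as the label says, with the 15 summing to 20270 to 21920 CPM in Pfas CKO and 23600 to 26320 CPM in control, and 10 were higher and 5 lower. Macrophage markers were also abundant: 19 of them, Csf1r not counted, summed to 6973 to 8672 CPM in Pfas CKO and 6252 to 6934 CPM in control, and 8 were higher, 7 lower and 4 not called. Cd14, named after its values were seen, rose most in this list (log2 fold change 2.01). Its mean was 1546 CPM with the knockout, against 384.5 CPM without it. No macrophage sum was made leaving Cd14 out, so how far the separation of the sums rests on this gene was not tested. Which cells the receptor transcripts came from was not tested. Of 15 neutrophil markers, Csf3r not counted, 8 were tested, 6 higher and 1 lower, and the 15 summed to 111 to 213 CPM in Pfas CKO and 164 to 194 CPM in control. Most of the control sum was Mmp8, a neutrophil collagenase, at a mean of 25.6 CPM in Pfas CKO and 154 CPM in control. The other 14, summed without it after the values were seen, came to 87.3 to 171 CPM in Pfas CKO and 22.3 to 26.4 CPM in control. That separation depends on leaving Mmp8 out, since the sums of all 15 overlapped. Mpo, which did not pass the filter, averaged 0.195 CPM in Pfas CKO and 0.673 CPM in control. The defining neutrophil gene Ly6g was at 0 to 0.106 CPM in Pfas CKO and 0.134 to 0.438 CPM in control, whereas S100a9 averaged 34.0 ± 14.8 CPM in Pfas CKO and 2.85 ± 0.506 CPM in control. Of 14 markers of lymphoid cells, some of which are known to make GM-CSF, 7 were tested, 3 higher and 2 lower, and the 14 summed to 239 to 297 CPM in Pfas CKO and 411 to 486 CPM in control, and Cd3e of T cells was at most 0.323 CPM in Pfas CKO and 0.613 CPM in control. Dendritic cell markers (5 higher and 4 lower of 9 tested) summed to 141 to 179.9 CPM in Pfas CKO and 114 to 123 CPM in control. Mast cell, basophil and eosinophil markers (3 higher of 3 tested) summed to 32.1 to 40.9 CPM in Pfas CKO and 24.5 to 31.1 CPM in control. Most of both sums was Kit, at a mean of 30.7 CPM in Pfas CKO and 26.2 CPM in control. Of those not tested, Mcpt4, Mcpt8, Ms4a2, Tpsb2, Cma1, Epx and Il5ra had lower means in Pfas CKO, and Prg2 a higher one. Their highest mean was 0.429 CPM, for Il5ra in control. Endothelial markers (8 higher and 2 lower of 10) summed to 822 to 1049 CPM in Pfas CKO and 765 to 812 CPM in control, and cardiomyocyte markers (9 higher of 9 tested) to 49.8 to 62.7 CPM in Pfas CKO and 21.2 to 22.7 CPM in control. Library totals alone gave other counts for some lists. The numbers higher and lower were then 7 and 5 for fibroblast, 7 and 8 for macrophage and 3 and 4 for dendritic cell markers. They were 6 and 2 for endothelial and 2 and 0 for mast cell, basophil and eosinophil markers. Among all tested genes 33.4% were higher and 35.2% lower with TMM, and 20.4% and 53% with library totals alone. The part of these cells in the ligand and receptor differences was not tested.

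Genes that act with these receptors moved in both directions, from lists chosen with earlier results of these data known. Of 12 JAK, STAT and Src-family or related kinase genes, 6 were higher and 6 lower (median log2 fold change 0.15, beside -0.02 for all genes, and -0.08 with library totals alone). Stat3, the main STAT protein of the G-CSF receptor, averaged 295 ± 10.3 CPM in Pfas CKO and 165 ± 7.93 CPM in control (edgeR adjusted p = 3.17e-10). Btk, a kinase of B and myeloid cells, averaged 20.8 ± 1.999 CPM in Pfas CKO and 55.8 ± 1.07 CPM in control (edgeR adjusted p = 1.72e-11). Jak2 and Stat5a, singled out after their values were seen because they carry the GM-CSF signal, were higher by 1.46 and 1.69 on the log2 scale (edgeR adjusted p = 9.67e-10 and 1.36e-08). Stat5b and Lyn of the same list, also named after their values were seen, changed by 0.46 and -0.25 (edgeR adjusted p = 2.38e-05 and 0.000257).

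Among 12 feedback and survival genes that STAT proteins induce, 8 were higher, 2 lower and 2 not called, with a median of 0.68 (0.45 with library totals alone, where 7 were higher and 3 lower). Pim1, a survival kinase, averaged 459 ± 37.9 CPM in Pfas CKO and 238 ± 9.61 CPM in control. Mcl1, an anti-death protein of the BCL2 family, averaged 1101 ± 102 CPM in Pfas CKO and 554 ± 27.4 CPM in control, and its myeloid relative Bcl2a1d averaged 139 ± 16.5 CPM in Pfas CKO and 50.3 ± 5.15 CPM in control. Their edgeR adjusted p-values were 7.93e-10, 1.71e-09 and 7.58e-10. Bcl2a1d has near-identical relatives, so its counts are uncertain. Its relatives Bcl2a1a and Bcl2a1b are on the same list and were also called higher (log2 fold changes 1.28 and 1.37). As these relatives are counted as separate genes, the number higher and the median rest partly on them. Of genes named after their values were seen, Socs3, a feedback inhibitor of the G-CSF receptor, was higher by 0.85 (edgeR adjusted p = 2.87e-07) and Bcl2l1, another anti-death gene, was lower (log2 fold change -0.95; edgeR adjusted p = 1.93e-08). Cish, a STAT5 target that restrains GM-CSF signalling, ranged from 38.3 to 85.7 CPM in Pfas CKO and from 46.2 to 51.9 CPM in control and was not called (log2 fold change 0.17; edgeR adjusted p = 0.451; 0.000184 to 0.927 over 26 alternatives), but without Pfas CKO 2 and 4 it was lower (log2 fold change -0.28; edgeR adjusted p = 0.000184).

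**Figure D5:**
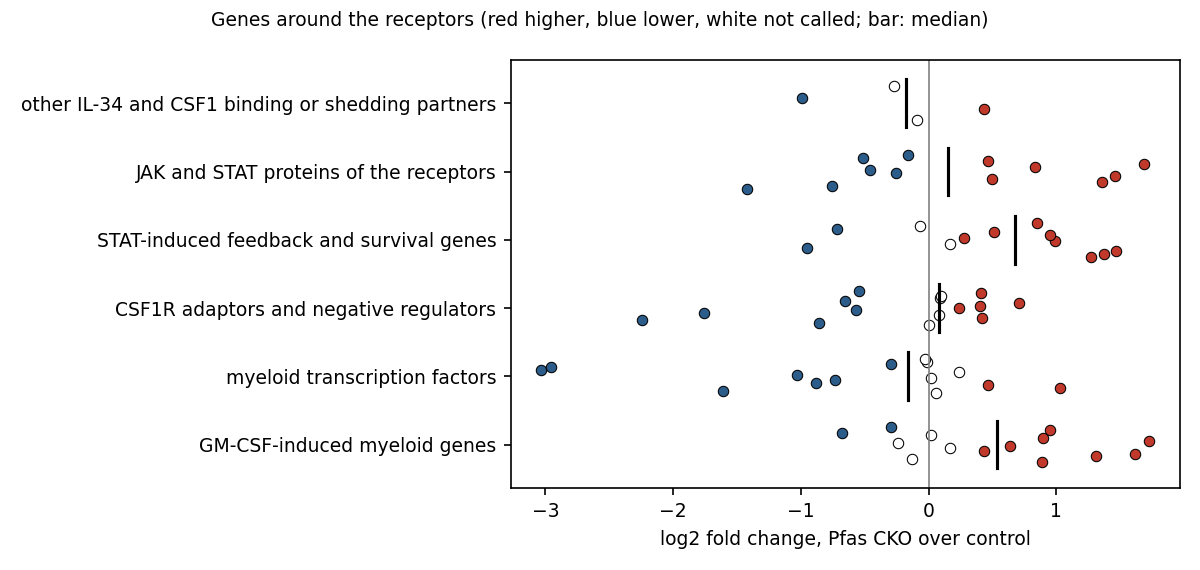
Log2 fold change, Pfas CKO over control, of each tested gene in 6 lists, with red for higher, blue for lower and white for not called, and a bar at the list's median. The median is 0.68 in the feedback and survival list, which counts Bcl2a1a, Bcl2a1b and Bcl2a1d separately, and 0.54 in the GM-CSF-induced list. Each list has genes on both sides of 0.

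Of 14 genes known to be induced by GM-CSF in myeloid cells, Csf2rb not counted, 8 were higher, 2 lower and 4 not called (median 0.54, and 0.30 with library totals alone, where 3 were lower). Pim1, Cish, Pparg, Irf4, Itgax and Fcgr1 are on other lists here as well. Arg1, which breaks down arginine in macrophages, averaged 194 ± 28.1 CPM in Pfas CKO and 105 ± 5.68 CPM in control, and Fabp4, a lipid chaperone, averaged 236 ± 19.5 CPM in Pfas CKO and 152 ± 8.715 CPM in control (edgeR adjusted p = 1.19e-07 and 2.08e-07). Of 15 adaptors and negative regulators around CSF1R, 5 were higher, 6 lower and 4 not called (median 0.08, and -0.15 with library totals alone, where 10 were lower). The brakes Inpp5d, a lipid phosphatase, and Dok2, an adaptor, were lower (log2 fold changes -1.76 and -2.25; edgeR adjusted p = 8.65e-11 and 1.97e-10), as was the phosphatase gene Ptpn6 (log2 fold change -0.65; edgeR adjusted p = 3.16e-08). A further 5 genes have products that bind or shed CSF1, IL-34 or CSF1R, and 4 of them were tested, 1 higher, 1 lower and 2 not called (median -0.18). Library totals alone gave 1 higher and 3 lower (median -0.41). Adam17, a sheddase of CSF1 and CSF1R, averaged 347 ± 10.01 CPM in Pfas CKO and 256 ± 5.75 CPM in control (edgeR adjusted p = 1.08e-07), and Sdc1, a cell-surface proteoglycan that binds IL-34, averaged 246 ± 29.8 CPM in Pfas CKO and 489 ± 19.1 CPM in control (edgeR adjusted p = 6.53e-09). Of the IL-3 and IL-5 relatives, Il3ra alone passed the filter (15.7 ± 2.35 CPM in Pfas CKO, 16.0 ± 1.36 CPM in control; edgeR adjusted p = 0.798). Library totals alone called Il3ra lower, at a log2 fold change of -0.26 (edgeR adjusted p = 0.0249). The highest level of Il3 and Il5 in any library was 0.157 CPM.

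Of 14 tested transcription factor genes of myeloid cells, 2 were higher, 7 lower and 5 not called (median -0.16, and -0.39 with library totals alone, where 10 were lower). Maf, a factor of mature macrophages, averaged 4.715 ± 1.496 CPM in Pfas CKO and 38.65 ± 2.54 CPM in control (edgeR adjusted p = 3.60e-11). Egr2, a factor induced early by growth factors, averaged 80.2 ± 2.61 CPM in Pfas CKO and 133 ± 3.78 CPM in control (edgeR adjusted p = 5.01e-10). Among factors that act on the receptor genes, named after their values were seen, Spi1 (PU.1) was not called (log2 fold change -0.03; edgeR adjusted p = 0.626; 0.000131 to 0.851 over 26 alternatives), though library totals alone called it lower at -0.26. Cebpa, a factor of granulocyte and monocyte development, was lower (log2 fold change -1.61; edgeR adjusted p = 2.24e-09) and Cebpb, its relative in inflammation, was higher by 1.03 (edgeR adjusted p = 8.99e-10).

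RefSeq promoter windows, 250 bases before to 50 after the gene start, were at hand for 5 of the 9 genes, Csf1, Csf2, Csf2ra, Csf2rb2 and Csf3r. They were searched on both strands for simple forms of 5 motifs. The NF-kB form, GGGA and CC with any 4 bases between them, occurs in 20.7% of 32851 promoters, AP-1 (TGANTCA) in 7.81%, PU.1 (GAGGAA) in 28.3%, RUNX (TGTGGT) in 16.8% and C/EBP (TTNCNNAA) in 40.7%. NF-kB is a transcription factor family that drives cytokine genes in inflammation, and PU.1 is the factor that myeloid receptor genes commonly share. The window of Csf1, a ligand that rose, had 3 NF-kB matches, starting at positions -231, -155 and -154 from the gene start, the last 2 of them overlapping on opposite strands, and 0 for PU.1. The window of Csf2ra, a receptor chain that fell, had 0 NF-kB matches and 2 for PU.1, at -14 and -8. Both are printed 5′ to 3′ on the gene's strand (minus; GRCm38.p6, chr3:107760420-107760719 for Csf1 and chr19:61228369-61228668 for Csf2ra), as examples of the ligand and receptor promoters, with the NF-kB matches of Csf1 and the PU.1 matches of Csf2ra in capitals.
Csf1: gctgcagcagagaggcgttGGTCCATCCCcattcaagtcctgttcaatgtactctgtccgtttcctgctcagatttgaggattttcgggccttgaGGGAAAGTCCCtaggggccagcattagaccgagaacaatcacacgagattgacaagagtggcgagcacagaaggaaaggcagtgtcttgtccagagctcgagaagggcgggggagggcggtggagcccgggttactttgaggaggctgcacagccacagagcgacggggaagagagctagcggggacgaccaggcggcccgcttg
Csf2ra: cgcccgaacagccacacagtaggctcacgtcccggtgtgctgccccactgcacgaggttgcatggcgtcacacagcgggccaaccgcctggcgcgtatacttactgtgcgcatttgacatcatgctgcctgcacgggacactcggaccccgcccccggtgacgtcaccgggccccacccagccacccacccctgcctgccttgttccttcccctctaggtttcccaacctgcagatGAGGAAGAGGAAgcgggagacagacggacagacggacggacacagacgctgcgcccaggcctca
Csf2rb2 had 2 PU.1 matches and Csf3r had 1, and Csf2 had none. Csf2, a ligand, and Csf3r, a receptor, each had 1 NF-kB match, so the printed pair does not stand for all 5 windows. C/EBP matches numbered 2 in Csf2rb2, 1 in Csf2 and 1 in Csf2ra, with a PU.1 and a C/EBP match overlapping in Csf2rb2, and no AP-1 or RUNX match occurred in any of the 5 windows. The RefSeq start of Csf2 lay 232 bases upstream of its GENCODE start, and that of Csf3r 109 bases inside the GENCODE gene. These windows are therefore not centred on the GENCODE starts. The Csf2 window, chr11:54249850-54250149 on the minus strand, lies wholly upstream of that gene's GENCODE start at 54249667. The counts for Csf2 therefore leave out the bases next to that start.

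Across the 12 libraries and 11742 genes that averaged 2 CPM or more, the genes whose log2 CPM followed each ligand or receptor most closely are given as a description, since all points share the split into groups and sets. Csf2 was followed by Pdpn, Ube2f and Errfi1 (Pearson r 0.998 to 0.999), and Csf3 by Pstpip2, Ccl3 and Susd6 (r 0.998 to 0.999). Csf1 was followed by C3, Oaf and Hmcn2 (r 0.986 to 0.988). For the receptors, Csf2rb was followed by Itga11, Gm39972 and Abcc10 (r 0.987 to 0.989), Csf2ra by Ecm1, Mfsd10 and Ccdc12 (r 0.964 to 0.979), Csf1r by Stab1, Ahnak2 and Ykt6 (r 0.966 to 0.976), Csf3r by Ppp1r14b, Syde1 and Itga11 (r 0.941 to 0.950) and Csf2rb2 by Kdm5c, Sphk1 and Rpl21 (r 0.940 to 0.943). Il34, with its low counts, had the weakest followers, Snrnp27, Flcn and Asb4 (r 0.805 to 0.841).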

How the data were processed

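The deposited table of 18771 genes gave each library's estimated counts, TPM and FPKM. The deposited estimated counts carry no normalization, and TPM and FPKM are the authors' own values scaled by gene length and library, per the file headers. FPKM replaced TPM in an alternative for the 3 within-library ratios. Such a ratio is the same on both scales but for rounding, so that alternative could not change the result. The submitters' processing notes name GRCm38 for all libraries and Bowtie2, RSEM and DESeq2, with neither version nor role, for 9 of them (Pfas CKO and control 4 to 6), and no tool for control 1 to 3. Annotation, strand setting and filters are not stated, so overlapping and antisense genes are uncertain.

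Genes with a blank value in any library (1067) were left out. Estimated counts were rounded, scaled with TMM, filtered with filterByExpr and fitted in R 4.3.3 with edgeR 4.0.16 (glmQLFit, glmQLFTest; group as the only term). The Benjamini-Hochberg threshold was 0.05 over 13600 genes. A standard error is the fold change over the root of its F value. The 3 within-library ratios were tested with exact permutation over 12 libraries. Alternatives included RLE, library totals alone, DESeq2 1.42.0, and limma 3.58.1 (voom, and log2(TPM + 1)). The test was checked on simulated counts of independent libraries with a common dispersion. That check does not cover near-identical sets of libraries, so it does not show how the p-values behave with them.

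The genes, lists and alternatives were chosen with earlier results of these data known. Genes named are the 9 genes, Pfas, up to 3 called genes with the smallest p per pathway list, defining cell markers and the 3 closest followers of each of the 9. Some genes this rule names are not reported here. Others are marked in the text as chosen after their values were seen. Sequences are from RefSeq promoters (GRCm38.p6) and GENCODE M21.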

Additional observations from a re-analysis of the deposited data

Results flagged for a closer look

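In groups of 6 libraries, a library was singled out where its gap to the nearest other, as a share of the group's range, exceeded Dixon's 95% critical value, which chance does in about 1 of 20 groups. Of 74 groups checked, 5 had such a library, in each case Pfas CKO 2 or 4. Csf1 stood at 1894 CPM in Pfas CKO 4 and at 2188 to 2287 CPM in the other 5 libraries. In the same library Jak2 was at 533.9 CPM (362 to 400.4 in the other 5), Stat3 at 314.9 CPM (287 to 297) and Inpp5d at 28.28 CPM (38.1 to 43.5). In Pfas CKO 2, Maf was at 7.727 CPM (3.81 to 4.42 in the other 5).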

How the results depend on the processing

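Csf2 and Csf3 kept their direction and call under all 26 alternatives (log2 fold change 2.06 to 2.61 and 2.82 to 3.41). The Csf2rb share kept both under all 14 of its own, which were FPKM and omissions of libraries, with no near-identical set summed. The number of genes higher in Pfas CKO and of genes lower in Pfas CKO was 4545 and 4785, but 2775 and 7202 with library totals alone, 2279 and 7280 on log2(TPM + 1), 2271 and 7263 on log2(TPM + 0.1), and 2783 and 2877 with near-identical libraries summed. Of the 9 genes, 3 were lower, but 0 with those libraries summed and 1 against control 4 to 6 alone. Log2 fold changes that turned sign or crossed the threshold follow, and their causes were not tested. With library totals alone, log2(TPM + 1) and log2(TPM + 0.1), in that order, Il34 was at -0.1991, -0.2131 and -0.2642, Csf1r at -0.1921, -0.2487 and -0.2497, Csf2rb2 at -0.0532, -0.1178 and -0.1181, Cish at -0.0649, -0.1941 and -0.201, and Spi1, past the threshold in all 3, at -0.2609, -0.304 and -0.3046. Csf1 was at 0.1412 and 0.1413 on the TPM scales. With near-identical libraries summed, Csf1r was at -0.052, Csf2ra at -0.1685, Csf2rb at -0.2928 and Csf3r at -0.0805. Against control 4 to 6 alone, Il34 was at -0.1039, Csf2ra at -0.1154, Csf2rb2 at 0.2804, Csf3r at -0.095 and Spi1 at 0.0226, and against control 1 to 3 alone Csf1r was at -0.0523. Without Pfas CKO 2 and 4, Il34 was at -0.042, Cish at -0.2805 and the Csf1 to Il34 ratio at 0.5092. RLE and DESeq2 both put Csf2rb2 at 0.1945, past the threshold. Stat5b crossed the threshold in 2 of 26 alternatives (0.1555 to 0.5588 over all of them). Leaving out 1 library at a time gave -0.0428 to 0.1148 for Il34, 0.1139 to 0.2105 for Csf2rb2, -0.1786 to -0.1186 for Csf3r, -0.0229 to 0.2505 for Cish, 0.3129 to 0.5088 for the Csf1 to Il34 ratio and 0.1563 to 0.2688 for Csf2ra to Csf2rb. Same-numbered libraries of the groups correlated at -0.0441 to 0.166 in their deviations from the group means. As the groups are made of near-identical sets, this does not decide whether same-numbered libraries were paired. A replicate block gave 4529 genes higher and 4755 lower and the same counts of 3 higher and 3 lower among the 9, and 3 of the 6 Pfas CKO libraries correlated best with the control of their own number. Il34, at 40 to 77 counts a library, is limited by depth.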
